A study of Mus musculus with 36 samples.

Results

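The genes described here encode the transcriptional repressor REST and 9 proteins of the corepressor machinery that it recruits: Rest, Rcor1, Rcor2, Rcor3, Kdm1a, Hdac1, Hdac2, Sin3a, Ehmt2 and Ctdsp1. They were chosen by name and not by a cut on their values, but with earlier results of these data known. All 10 were present among the 46603 genes counted by RNA sequencing in a Chd8 allelic series in the mouse. CHD8 is a chromatin remodeller whose loss of 1 copy is linked to autism in people. At embryonic day 12.5 (E12.5) the cortex of single C57Bl/6J embryos was sequenced in 4 genotypes, each with 3 libraries: Chd8 +/+, Chd8 +/- (1 null allele), Chd8 neo/neo (2 copies of a hypomorphic allele, in which a neo cassette sits in the intron after exon 3) and Chd8 neo/- (1 hypomorphic and 1 null allele). At E10.5, cortex of 2 embryos was pooled for each library, with 3 libraries of a conditional knockout (cKO, sox1-Cre; Chd8 f/f) and 3 of a control group (Ctrl) that combined embryos with floxed alleles. The Sox1 driver deletes Chd8 in the neural lineage, so other cells of the tissue keep the gene, and the null allele of the E12.5 embryos removes exon 3 in every cell. The constitutive lines go back to 2 injected embryonic stem cell clones.

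REST (repressor element 1 silencing transcription factor) is a zinc finger protein that binds a long DNA motif, RE1, near many genes of neuronal function and keeps them silent outside neurons and in neural progenitors. Its amino-terminal part recruits SIN3A with the histone deacetylases HDAC1 and HDAC2, and its carboxy-terminal part recruits a CoREST protein (RCOR1, RCOR2 or RCOR3) together with the histone demethylase LSD1, the product of Kdm1a, and the same deacetylases. The histone H3 lysine 9 methyltransferase G9a (Ehmt2) joins this assembly, and the small phosphatase CTDSP1 acts on RNA polymerase II at REST-bound genes and on REST itself. As neurons differentiate REST falls, and its targets, among them synaptic vesicle proteins, ion channels and secretory granule proteins, are derepressed.

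The promoter sequences of Rcor2 and Ctdsp1 are shown first. These genes of the group were called higher in Chd8 neo/neo cortex, Ctdsp1 only at the edge of the threshold. The promoter of each holds a short match to the right-hand part of the RE1 motif, found in 6.56% of all windows. RefSeq promoter windows of 300 bases (250 before and 50 after each annotated start, build GRCm38.p6) were found for 8 of the 10 genes, all but Rest and Hdac1. Both strands were searched for AGCACCNNGGACAG, the core of RE1, for CAGCACC (its left-hand part) and GGACAGC (its right-hand part), each of which shares 6 letters with the core, and for GGGCGG, the GC box. The core occurred in 17 of 32851 windows (0.0517%) and in none of these 8 genes. CAGCACC occurred in 7.14% of all windows and in none of these genes. GGACAGC occurred in 6.56% of all windows and, in this group, in Rcor2 and Ctdsp1. GGGCGG was present in 35.7% of all windows and in 7 of the 8 genes, the exception being Kdm1a. Such a match describes letters only and is not a binding site. In the following lines, read 5′ to 3′ on the strand of the gene, capitals mark matches to GGACAGC or GGGCGG on either strand for Rcor2 and Ctdsp1, and the match to the RE1 core for Gria2, a glutamate receptor subunit gene and the only one of the 27 listed REST targets with a RefSeq window to hold the core.
Rcor2, chr19:7267317-7267346, plus strand, where both matches adjoin at the annotated start of the gene: ccgtgggagGGACAGCGGGCGGgggcttcg
Rcor2, chr19:7267144-7267324, plus strand, the bases before that start, without a match: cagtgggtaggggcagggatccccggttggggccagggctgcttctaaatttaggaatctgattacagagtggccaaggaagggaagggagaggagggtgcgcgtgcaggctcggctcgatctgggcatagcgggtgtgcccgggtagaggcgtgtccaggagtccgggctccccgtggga
Ctdsp1, chr1:74391359-74391508, plus strand, the bases before the annotated start: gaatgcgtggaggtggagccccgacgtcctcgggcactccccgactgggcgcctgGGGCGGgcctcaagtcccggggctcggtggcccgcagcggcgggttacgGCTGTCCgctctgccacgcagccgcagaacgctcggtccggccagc
Gria2, chr3:80802984-80803013, minus strand, 170 bases before the RefSeq start: ccaaagcgCTGTCCGCGGTGCTaaaatcga

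The libraries held 38774591 to 61051667 counts at E12.5 and 49632937 to 68488879 at E10.5, so that even Rcor3, the least abundant gene of the group, was counted in every library. Levels are given as CPM (read counts scaled to a common library total), with library sizes scaled by TMM (trimmed mean of M-values) within each age, and values by library follow the order of replicates 1, 2 and 3. Chd8 itself, the targeted gene, stood at 237, 235 and 239 CPM in Chd8 +/+, at 213, 203 and 211 CPM in Chd8 neo/neo, at 165, 170.2 and 165 CPM in Chd8 +/- and at 158, 147 and 142 CPM in Chd8 neo/-. It stood at 160.0, 168 and 184 CPM in Ctrl and at 120.5, 125 and 116 CPM in cKO. Every mutant library was below every control library of its age, although a count over the whole gene also includes reads from transcripts that lack exon 3 or end in the cassette. Dorsal forebrain markers were detected in all 18 libraries (5 of 5 genes, summed level 692 to 1187 CPM), and midbrain and hindbrain markers were at or near 0 (summed level at most 1.55 CPM). Xist and Y-linked genes marked 2 of 3 Chd8 neo/neo libraries, 1 of 3 Chd8 +/+, 1 of 3 Chd8 +/- and 0 of 3 Chd8 neo/- libraries as female, 2 of 3 Ctrl libraries as female, and each cKO pool as mixed.

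Per exon length, the deacetylase gene Hdac2 and the CoREST gene Rcor2 were the most abundant members of the machinery at E12.5, and Rest itself was the second lowest. In Chd8 +/+, Hdac2 stood at 89.3 ± 5.49 CPM per kilobase (mean ± SD, n = 3), followed by Rcor2 at 67.0 ± 6.22. Ehmt2 at 49.9 ± 2.44, Hdac1 at 47.5 ± 0.739 and Kdm1a at 47.2 ± 1.71 CPM per kilobase overlapped between libraries and could not be ordered. Sin3a at 31.3 ± 1.604, Ctdsp1 at 23.5 ± 0.897, Rcor1 at 13.1 ± 1.34, Rest at 7.05 ± 0.499 and Rcor3 at 1.66 ± 0.109 CPM per kilobase followed without overlap. At E10.5, in Ctrl, Rcor2 (71.7 to 73.7 CPM per kilobase) was above Hdac1 (63.0 to 67.4) and Hdac2 (60.1 to 68.8), which overlapped each other. Rest stood at 10.6 to 12.5 CPM per kilobase there and overlapped Rcor1 (12.1 to 15.4), and Rcor3 was again lowest (1.124 to 1.33). Both ages were sequenced and normalised apart, and age and batch cannot be told apart, so that no test between them was made.

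**Figure D1:**
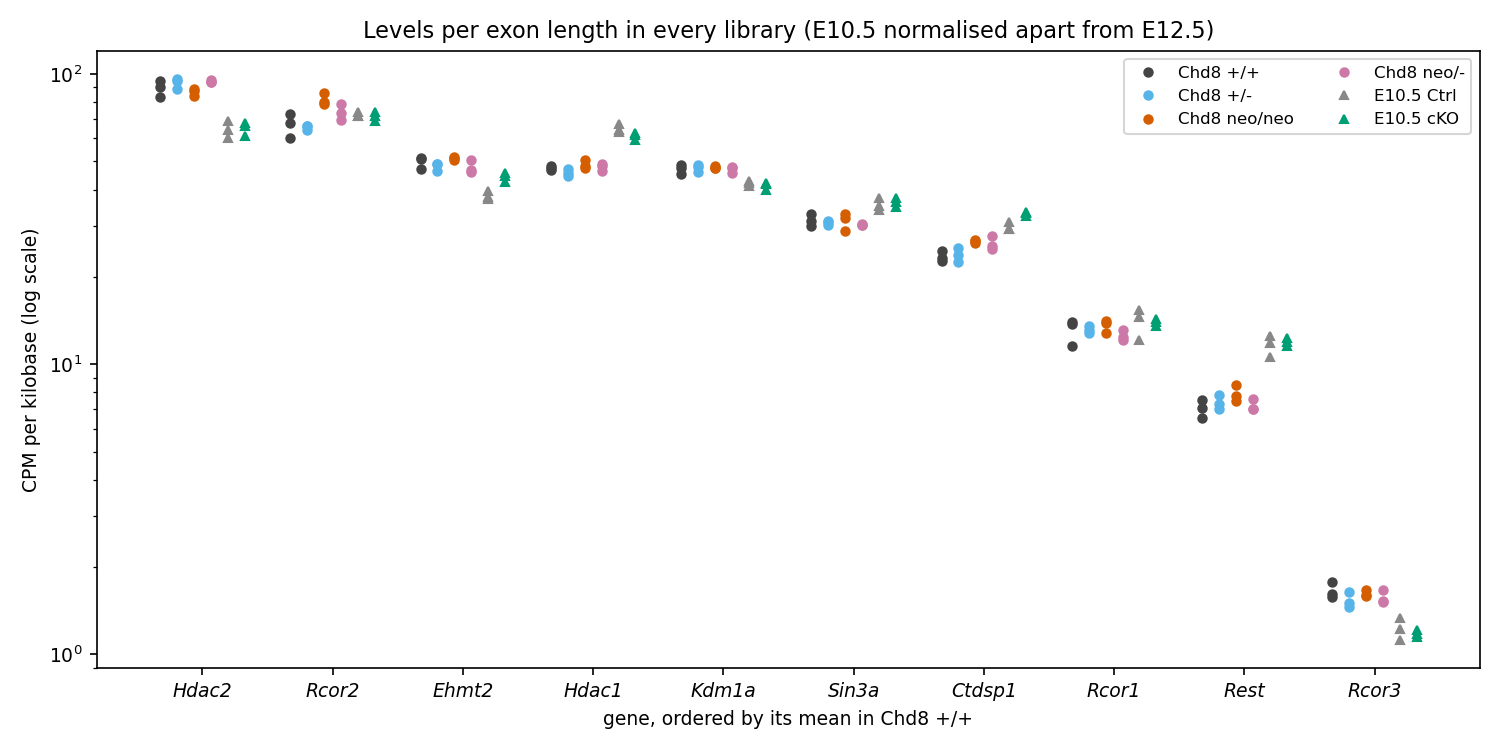
CPM per kilobase of exon on a log axis for the 10 genes, ordered by their mean in Chd8 +/+. Each point is 1 library, circles are E12.5 and triangles E10.5. Hdac2 and Rcor2 lie highest at E12.5 and Rcor3 lies lowest at both ages.

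To ask whether reduced Chd8 dosage altered the expression of the REST machinery, each gene was compared between genotypes with edgeR across all genes tested, and called at a Benjamini-Hochberg adjusted p under 0.05. Of the 10 genes, 7 were not called in any comparison. In Chd8 neo/neo against Chd8 +/+, 2 of 10 genes were called, Rcor2 and Ctdsp1, both higher, while 8.16% of the 18810 genes tested were called in either direction and 3.71% were called higher. At an unadjusted p under 0.05, 3 of 10 passed, beside 25.2% of all genes. In Chd8 neo/- against Chd8 +/+ edgeR called 0 of 10 genes (2 at an unadjusted p under 0.05, 0 with DESeq2), with 11.5% of all genes called and 26.5% passing unadjusted. In Chd8 +/- against Chd8 +/+ edgeR called 0 of 10 (0 unadjusted, 0 with DESeq2), with 0.0213% of all genes called and 6.33% passing unadjusted. At E10.5, 1 of 10 genes was called in cKO against Ctrl, Ehmt2, which was higher, with 11.4% of 18435 genes called in either direction and 5.75% called higher. Unadjusted, 2 of 10 passed there, beside 27.4% of all genes. Between Chd8 neo/- and Chd8 neo/neo edgeR called 0 of 10 (2 unadjusted, 0 with DESeq2), beside 0.0159% of all genes called and 8.43% passing unadjusted, and between Chd8 neo/- and Chd8 +/- 0 of 10 (2 unadjusted, 0 with DESeq2), beside 5.43% and 22.5%. Counts of 0 to 2 in 10 genes lie near these background shares and show nothing particular to the machinery as a group. The median log2 fold change of the 10 genes was 0.042 in Chd8 neo/neo, 0.0020 in Chd8 neo/-, -0.011 in Chd8 +/- and 0.0057 in cKO, each against its control, beside medians between -0.0019 and 0.0053 for all genes tested.

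**Figure D2:**
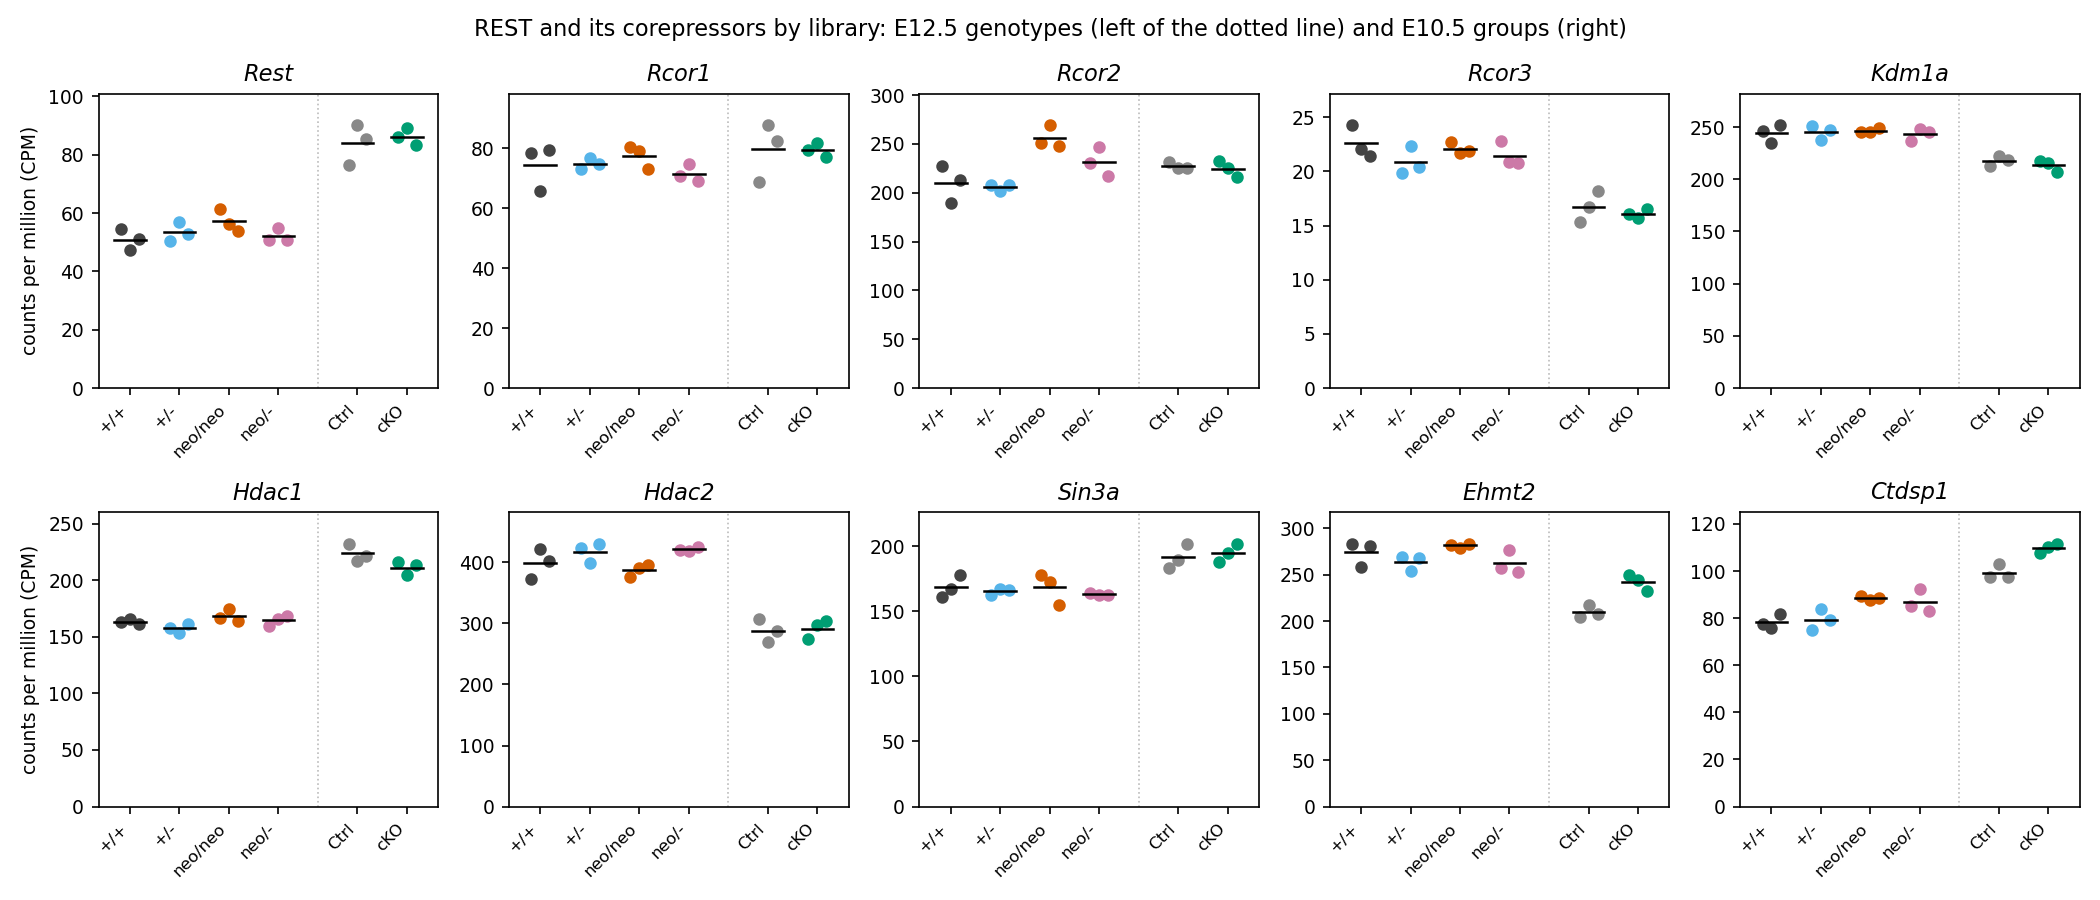
CPM of the 10 genes in every library, 1 point per library with the group mean as a bar, E12.5 genotypes left of the dotted line and E10.5 groups right of it. In Rcor2 the 3 Chd8 neo/neo libraries lie above all Chd8 +/+ and Chd8 +/- libraries, and in Ehmt2 the 3 cKO libraries lie above the 3 Ctrl libraries.

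Rest (chr5:77265491-77286432, plus strand, GRCm38) was counted at 54.4, 47.2 and 51.2 CPM in the 3 Chd8 +/+ libraries, 50.6, 56.8 and 52.7 in Chd8 +/-, 50.8, 54.8 and 50.8 in Chd8 neo/- and 61.3, 56.1 and 54.0 in Chd8 neo/neo. The highest library was a Chd8 neo/neo library and the lowest a Chd8 +/+ library, and the ranges of all 4 genotypes overlapped. The log2 fold change in Chd8 neo/neo against Chd8 +/+ was 0.17 ± 0.065 (SE, adjusted p = 0.127), and it passed the threshold, at 0.23 and an adjusted p of 0.0460, only after correction for exon length and GC content. Against the same controls it was 0.033 (95% interval -0.11 to 0.17) in Chd8 neo/- and 0.067 (-0.072 to 0.21) in Chd8 +/-, neither called. At E10.5 Rest stood at 76.6, 90.2 and 85.3 CPM in Ctrl and 86.1, 89.1 and 83.4 CPM in cKO. The cKO libraries lay within the range of the controls, and the difference was 0.037 on the log2 scale (95% interval -0.11 to 0.19, adjusted p = 0.773).

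Of the 3 CoREST scaffolds, which tie LSD1 and the deacetylases to REST, Rcor2 rose in Chd8 neo/neo. Rcor2 (chr19:7267325-7275225, plus strand, GRCm38), the CoREST gene known from neural progenitors, was counted at 228, 189 and 213 CPM in Chd8 +/+ and 251, 269 and 247 CPM in Chd8 neo/neo. All 3 Chd8 neo/neo libraries were above all 3 controls. In this contrast 2 of the 10 genes, and 4891 of all 18810 genes tested, did not overlap between groups. The log2 fold change was 0.29 ± 0.063 (SE, 95% interval 0.15 to 0.42, adjusted p = 0.0160). Chd8 +/- stood at 208, 202 and 208 CPM, and Rcor2 was higher in Chd8 neo/neo than in Chd8 +/- by 0.31 ± 0.063 on the log2 scale (adjusted p = 0.0189), 1 of 10 genes called there beside 5.28% of all genes (2.00% called higher). Chd8 neo/- lay between, at 230.1, 247 and 217 CPM, and overlapped Chd8 +/+. It was above each Chd8 +/- library, in a contrast where 1 of the 10 genes and 30.9% of all genes did not overlap, and below each Chd8 neo/neo library. Its differences were 0.14 against Chd8 +/+ (95% interval 0.0047 to 0.27, adjusted p = 0.173) and -0.15 against Chd8 neo/neo (adjusted p = 0.569), and neither passed the test, although 3 of the 10 genes (Rcor2, Hdac2 and Ehmt2) and 15.2% of all genes did not overlap between the hypomorphs. In the test of any difference among the 4 genotypes, Rcor2 was the 1 gene of 10 called (adjusted p = 0.0142, 10.7% of all genes called).

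The Rcor2 call of Chd8 neo/neo against Chd8 +/+ held in 19 of 22 alternatives and its log2 fold change stayed between 0.22 and 0.34. It was lost without Chd8 +/+ replicate 2, the lowest control (0.22, adjusted p = 0.0531), without Chd8 neo/neo replicate 2, the highest mutant (0.24, adjusted p = 0.0800), and when only the 2 groups were fitted (adjusted p = 0.0554). The call against Chd8 +/- was lost without Chd8 +/- replicate 1 (adjusted p = 0.0690), without Chd8 neo/neo replicate 1 (0.0651) or 2 (0.0805), and with length and GC trends removed (0.0555). With a sex term from Y-linked counts the log2 fold change against Chd8 +/+ was 0.27 (adjusted p = 0.0368). Markers of other cell types moved with this contrast. The summed level of 8 neuronal markers was 2928 to 3457 CPM in Chd8 neo/neo and 3581 to 4276 CPM in Chd8 +/+, without overlap, and Dcx (log2 fold change -0.42) and Map2 (-0.32) fell. Of 7 progenitor markers, Sox2 (0.29) and Pax6 (0.19) rose, and the summed level was 2574 to 3002 CPM against 2574 to 2778 CPM. The 5 dorsal forebrain markers summed to 1068 to 1187 CPM in Chd8 neo/neo against 947 to 1051 CPM, the 4 endothelial markers to 169 to 186 against 190.2 to 193 CPM and the 4 microglial markers to 18.3 to 23.98 against 24.8 to 26.2 CPM, each without overlap, and the endothelial receptor gene Kdr fell (-0.17, adjusted p = 0.0236). The part of these cell type markers in the Rcor2 difference was not tested, and in whole tissue a change in the number of cells that express a gene and a change in RNA per cell cannot be told apart.

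At E10.5 Rcor2 stood at 231, 225 and 225 CPM in Ctrl and 233, 225 and 216 CPM in cKO. The ranges overlapped, with a log2 difference of -0.016 (95% interval -0.14 to 0.10, adjusted p = 0.885). Whether this differs from the contrast of Chd8 neo/neo was not tested.

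Rcor1 (chr12:111039351-111115901, plus strand), the founding CoREST gene, was counted at 78.4, 65.7 and 79.3 CPM in Chd8 +/+, 73.0, 76.8 and 74.8 in Chd8 +/-, 70.8, 74.6 and 69.0 in Chd8 neo/- and 80.4, 78.9 and 73.1 in Chd8 neo/neo. All genotypes overlapped the controls, and the log2 fold changes against Chd8 +/+ were 0.0068 in Chd8 +/-, -0.060 in Chd8 neo/- and 0.056 in Chd8 neo/neo, none called. At E10.5 Rcor1 stood at 68.8, 87.7 and 82.4 CPM in Ctrl and 79.2, 81.6 and 77.1 in cKO, with all cKO libraries inside the wide range of the controls. Rcor3 (chr1:192098546-192138062, minus strand) was counted at 24.3, 22.02 and 21.5 CPM in Chd8 +/+, and all other E12.5 libraries lay between 19.9 and 22.8 CPM. Its largest difference, -0.11 in Chd8 +/- (95% interval -0.25 to 0.025), was not called. Exons of Rcor3 share 667 bases (4.90%) with the antisense gene Gm26879 and fewer with Gm10516 and Gm37055, and reads of both strands were counted together, so that sense and antisense RNA cannot be told apart in those bases.

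Summed per kilobase, Rcor2 made up most of the CoREST family RNA in every group. These shares depend on the annotated exon lengths, 3135 bases for Rcor2, 5684 for Rcor1 and 13622 for Rcor3. Without division by length, mean levels in Chd8 +/+ were 210 CPM for Rcor2, 74.5 for Rcor1 and 22.6 for Rcor3. The Rcor2 share per kilobase was 81.9% ± 0.491 (mean ± SD, n = 3) in Chd8 +/+, 81.7% ± 0.674 in Chd8 +/-, 83.9% ± 0.379 in Chd8 neo/- and 84.3% ± 0.652 in Chd8 neo/neo. By library the share was 81.4 to 82.3% in Chd8 +/+, 83.5 to 84.7% in Chd8 neo/neo and 83.5 to 84.3% in Chd8 neo/-. Both hypomorphs lay above Chd8 +/+ without overlap. In the same order of groups, Rcor1 held 15.6 to 16.7%, 13.7 to 14.8% and 14.1 to 14.6%. At E10.5 Rcor2 held 81.2 to 84.8% in Ctrl and 82.2 to 83.1% in cKO, and Rcor3 held at most 2.20% in any library. With 3 libraries a group, an exact permutation test of such shares cannot go below a two-sided p of 0.10, and none was run.

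Kdm1a (chr4:136550540-136602723, minus strand), which encodes LSD1, the demethylase that removes methyl groups from lysine 4 of histone H3, held a similar level in all genotypes. It was counted at 247, 235 and 252 CPM in Chd8 +/+, 251, 237 and 248 in Chd8 +/-, 237, 248 and 245 in Chd8 neo/- and 245, 245 and 249 in Chd8 neo/neo. The mutant ranges lay inside that of the controls in all 3 cases, and the 95% intervals of the log2 fold changes against Chd8 +/+ were -0.082 to 0.092 in Chd8 +/-, -0.094 to 0.081 in Chd8 neo/- and -0.074 to 0.10 in Chd8 neo/neo. At E10.5 Kdm1a stood at 213, 223 and 219 CPM in Ctrl and 217, 216 and 207 CPM in cKO (log2 difference -0.031, 95% interval -0.15 to 0.087).

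The deacetylases Hdac1 and Hdac2, which serve both arms of the complex, were not called in any comparison. Hdac1 (chr4:129516104-129542713, minus strand) was counted at 163, 166 and 161 CPM in Chd8 +/+, 157, 153 and 162 in Chd8 +/-, 159.9, 165 and 169 in Chd8 neo/- and 167, 175 and 164 in Chd8 neo/neo. Hdac2 (chr10:36974544-37001889, plus strand) was counted at 373, 422 and 403 CPM in Chd8 +/+, 423, 399 and 431 in Chd8 +/-, 419.8, 419 and 426 in Chd8 neo/- and 377, 391 and 396 in Chd8 neo/neo. Between Chd8 neo/neo and Chd8 +/- the groups did not overlap for either gene, with log2 differences of 0.10 for Hdac1 (adjusted p = 0.139) and -0.11 for Hdac2 (adjusted p = 0.216), neither called. In that contrast 5 of the 10 genes and 25.5% of all genes tested did not overlap. Of the summed Hdac1 and Hdac2 level per kilobase, Hdac1 held 33.8 to 36.3% in Chd8 +/+, 32.6 to 33.3% in Chd8 +/-, 33.1 to 33.9% in Chd8 neo/- and 34.98 to 36.7% in Chd8 neo/neo. At E10.5 that share was 49.5 to 51.2% in Ctrl and 47.2 to 50.6% in cKO. Hdac1 stood there at 232, 217 and 221 CPM in Ctrl and 216, 205 and 213 CPM in cKO, each cKO library below each control. In that contrast 3 of the 10 genes and 32.2% of all genes did not overlap. The log2 difference of Hdac1, -0.083 ± 0.056, did not pass the test (adjusted p = 0.371). Hdac2 stood at 308, 269 and 287.4 CPM in Ctrl and 273.9, 297 and 304 CPM in cKO, with overlapping ranges.

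Sin3a (chr9:57072040-57128366, plus strand), the scaffold of the amino-terminal repressor complex, was counted at 161, 167 and 178 CPM in Chd8 +/+, 162, 167 and 166 in Chd8 +/-, 164, 162 and 162 in Chd8 neo/- and 178, 172 and 155 in Chd8 neo/neo. All groups overlapped, and the log2 fold changes against Chd8 +/+ were -0.031 in Chd8 +/-, -0.050 in Chd8 neo/- and -0.0042 in Chd8 neo/neo, each with an SE of 0.049. At E10.5 it stood at 183, 189 and 202 CPM in Ctrl and 188, 195 and 201 CPM in cKO (log2 difference 0.023). Sin3a shares 205 exon bases (3.81%) with the antisense gene Man2c1os.

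Ehmt2 (chr17:34898469-34914052, plus strand), which encodes G9a, rose in the conditional knockout at E10.5. It was counted at 204, 218 and 207 CPM in Ctrl and 249.7, 244 and 232 CPM in cKO. Each cKO library was above each control, which was so, in either direction, for 32.2% of all genes tested and for 3 of the 10 genes. The log2 fold change was 0.21 ± 0.057 (SE, 95% interval 0.084 to 0.33, adjusted p = 0.0379). It was 0.11 (adjusted p = 0.182) after the same correction for exon length and GC content. The call was also lost in the first sequencing run alone (adjusted p = 0.0582) and without Ctrl replicate 1 (0.0628), Ctrl replicate 3 (0.127), cKO replicate 1 (0.0910), cKO replicate 2 (0.157) or cKO replicate 3 (0.0731). The summed level of 6 mesenchymal markers was 762 to 951 CPM in cKO and 615 to 699 CPM in Ctrl, without overlap, with Col1a2 (0.40) and Col3a1 (0.44) called higher on the log2 scale. Of the other markers, the endothelial gene Cdh5 (0.25) and the microglial gene Cx3cr1 (0.48) rose and the ventral forebrain gene Gsx2 (-1.43) fell in cKO. The part of these in the Ehmt2 difference was not tested. At E12.5 Ehmt2 was counted at 282.7, 259 and 280.7 CPM in Chd8 +/+, 269, 254 and 268 in Chd8 +/-, 257, 277.1 and 253 in Chd8 neo/- and 282.5, 278.6 and 283.6 in Chd8 neo/neo. Each mutant overlapped the controls, with 95% intervals of the log2 fold change of -0.16 to 0.039 in Chd8 neo/- and -0.063 to 0.14 in Chd8 neo/neo.

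Ctdsp1 (chr1:74391509-74397285, plus strand), the phosphatase gene, was higher in Chd8 neo/neo, at the edge of the threshold. It was counted at 77.7, 75.9 and 81.7 CPM in Chd8 +/+ and 89.6, 87.6 and 88.7 CPM in Chd8 neo/neo, and all mutant libraries were above all controls. The log2 fold change was 0.18 ± 0.052 (SE, adjusted p = 0.0497). It stayed between 0.16 and 0.22 in 22 alternatives, but the call held in only 3 of them (DESeq2, the second sequencing run alone, and without Chd8 +/- replicate 2), and adjusted p ranged from 0.0250 to 0.154, so that leaving out any library of either group ended it. Chd8 neo/- stood at 85.3, 92.6 and 83.0 CPM, again above all controls (0.15 ± 0.052, adjusted p = 0.0771), in a comparison in which 33.3% of all genes did not overlap. Chd8 +/- overlapped the controls at 74.8, 84.1 and 79.4 CPM. At E10.5 Ctdsp1 stood at 97.3, 103 and 97.3 CPM in Ctrl and 108, 110.3 and 112 CPM in cKO, without overlap, and the difference of 0.15 ± 0.055 did not pass the test (adjusted p = 0.107). The groups did not overlap there for 3 of the 10 genes and 32.2% of all genes.

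**Figure D3:**
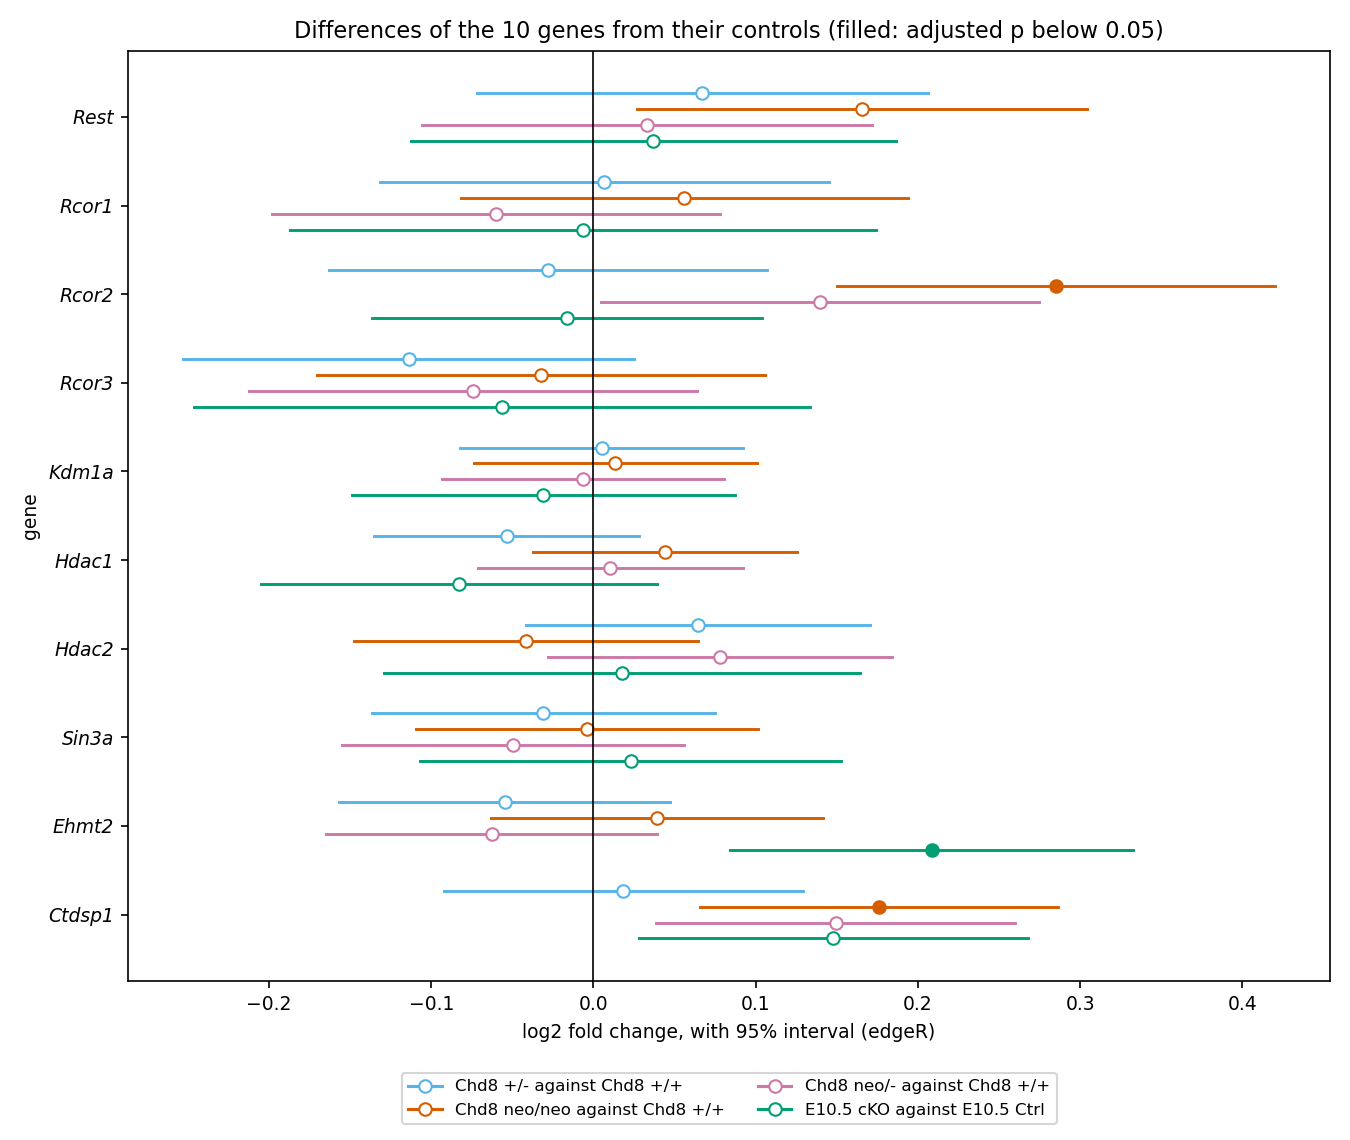
Log2 fold change of each gene against its control in 4 comparisons, with 95% intervals from edgeR. Filled points passed an adjusted p of 0.05. Filled points are Rcor2 (0.29) and Ctdsp1 (0.18) in Chd8 neo/neo and Ehmt2 (0.21) in cKO, while the intervals of Kdm1a, Hdac1, Hdac2, Sin3a, Rcor1 and Rcor3 all include 0. The intervals of Rest in Chd8 neo/neo, Rcor2 in Chd8 neo/-, and Ctdsp1 in Chd8 neo/- and cKO exclude 0 without a call.

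The other genes of the pathway were read beside the share of all genes called in either direction, 8.16% in Chd8 neo/neo, 11.5% in Chd8 neo/- and 11.4% in cKO. Of 11 genes of the CoREST complex and its partners, 1 rose and 1 fell in Chd8 neo/neo against Chd8 +/+: Hmg20b, an HMG-box subunit of the CoREST complex (0.39 ± 0.084 on the log2 scale ± SE, adjusted p = 0.0144), and the zinc finger subunit gene Zmym3 (-0.26 ± 0.053, adjusted p = 0.0108). Against Chd8 +/-, Hmg20b rose by 0.48 in Chd8 neo/neo (adjusted p = 0.0147) and by 0.31 in Chd8 neo/- (adjusted p = 0.0459). It was the 1 gene of 11 called in each of these contrasts, beside 5.28% and 5.43% of all genes. Zmym3 (-0.29 ± 0.053) and Phf21b (-0.27 ± 0.060), a paralogue of the CoREST reader Phf21a, fell in Chd8 neo/- against Chd8 +/+. In cKO, Phf21b fell (-0.45 ± 0.056, adjusted p = 0.000827) and Gse1, a gene of the same complex, rose (0.35 ± 0.10). The median log2 fold change of the list was -0.0097 in Chd8 neo/neo, -0.11 in Chd8 neo/- and 0.049 in cKO.

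Of 14 further genes of the SIN3 complex, Brms1l, a SIN3-HDAC subunit, fell in Chd8 neo/neo, Chd8 neo/- and cKO. It was the 1 gene of the list called in Chd8 neo/neo, and 2 of 14 were called in Chd8 neo/- and 2 of 14 in cKO, beside 8.16%, 11.5% and 11.4% of all genes. Its log2 fold change was -0.24 ± 0.049 in Chd8 neo/neo (adjusted p = 0.0106), -0.25 ± 0.049 in Chd8 neo/- (adjusted p = 0.00545) and -0.30 ± 0.073 in cKO (adjusted p = 0.0262). Both E12.5 values share their controls. Sap18 rose in Chd8 neo/- (0.16 ± 0.048) and Sap130 in cKO (0.25 ± 0.067), both SIN3-associated subunits. The medians of the list were 0.045, 0.047 and -0.035 in Chd8 neo/neo, Chd8 neo/- and cKO. Among the other recruited chromatin factors, Smarca4, the ATPase of the BAF remodelling complex, rose in cKO (0.48 ± 0.071, adjusted p = 0.00251), where 11.4% of all genes were called. Among 10 regulators of REST abundance, splicing or location, 1 was called: Srrm4, the neuronal splicing factor that switches Rest to a truncated isoform, fell in Chd8 neo/- (-0.23 ± 0.059, adjusted p = 0.0214), where 11.5% of all genes were called. In Chd8 +/- against Chd8 +/+ edgeR called 0 genes of any of these 4 lists (3 at an unadjusted p under 0.05 in all, 0 with DESeq2). In Chd8 neo/neo against Chd8 +/+, the counts of 1 CoREST gene called higher and 1 called lower each reached 0 among the 22 alternatives. So did the count of 1 called higher against Chd8 +/- in each hypomorph. Several of the calls in these lists depended on single libraries. The fall of Brms1l in Chd8 neo/neo was lost, leaving 0 SIN3 genes called lower, without Chd8 +/+ replicate 2 or Chd8 neo/neo replicate 2, and in cKO without Ctrl replicate 1 or 3 or cKO replicate 2 or 3. No regulator was called lower in Chd8 neo/- without Chd8 +/+ replicate 2 or 3 or Chd8 neo/- replicate 1 or 2. No SIN3 gene was called higher in Chd8 neo/- without Chd8 +/+ replicate 1 or 3, Chd8 +/- replicate 1 or 3, Chd8 neo/neo replicate 1 or 2, or any Chd8 neo/- library, nor in cKO without Ctrl replicate 3 or any cKO library. No CoREST gene was called higher in cKO without Ctrl replicate 1 or 2 or any cKO library, and 1 in place of 2 was called lower in Chd8 neo/- without Chd8 +/+ replicate 3 or Chd8 neo/- replicate 2.

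Rest itself was not called, while 11 or 12 of 41 genes listed as REST targets fell in the hypomorphs. The list holds 44 names for 43 genes, of which 41 were tested at E12.5 and 40 at E10.5. It was written with earlier results of these data known, so its counts support nothing independently. The paper had already reported REST targets mainly among the downregulated genes of the hypomorphs. In Chd8 neo/neo against Chd8 +/+, 12 of 41 fell, 1 rose and 28 were not called, with a median log2 fold change of -0.33 beside 0.0053 for all genes, of which 4.45% were called lower. The 8 neuronal markers, 2 of them also on the target list, had a median of -0.37 in this contrast, with 0 of 8 above 0. The same comparison of Chd8 neo/- gave 11 lower and 1 higher, with a median of -0.28, while 5.99% of all genes were called lower and 5.48% higher. The median of the neuronal markers was -0.17 there. Against Chd8 +/- as the control, 7 of 41 fell in Chd8 neo/neo, with 3.28% of all genes called lower, and 6 of 41 in Chd8 neo/-, with 5.43% of all genes called in either direction. The count of 7 was 2 with the replicate number as a block, 1 with the sex term, 3 with length and GC trends removed, 4 with no filter or the first run alone, 3 with the second run alone, 0 with only the 2 groups compared and 19 with DESeq2. Leaving out single libraries gave 0 without Chd8 +/- replicate 1 or either of the female Chd8 neo/neo libraries, replicates 1 and 2, while leaving out replicate 3 of that genotype gave 22. Without Chd8 +/+ replicate 3 that count was 1, without Chd8 +/- replicate 3, Chd8 neo/- replicate 1 or Chd8 neo/- replicate 2 it was 2, without Chd8 +/- replicate 2 it was 3, and without Chd8 +/+ replicate 1 or Chd8 neo/- replicate 3 it was 4. For Chd8 neo/- the 6 were 13 with DESeq2, 12 with only the 2 groups compared, 10 without Chd8 neo/neo replicate 3, 3 without Chd8 +/- replicate 1 or Chd8 neo/- replicate 2, and 2 without Chd8 neo/- replicate 1. In Chd8 +/- edgeR called 0 of 41 (3 at an unadjusted p under 0.05, 0 with DESeq2), with a median of -0.012. In cKO, 9 of 40 fell and 2 rose, with a median of -0.18 and 5.70% of all genes called lower. The 6 neuronal markers tested at that age had a median of 0.0096. Whether targets and neuronal markers differ in any of these comparisons was not tested. Against Chd8 +/+ the count of targets that fell also moved with the processing and with single libraries. The 12 of Chd8 neo/neo, where 2 of 3 libraries were female against 1 of 3 in Chd8 +/+, became 6 with the sex term, 6 with only the 2 groups compared, 7 with the replicate block, 7 with length and GC trends removed and 20 with DESeq2. They became 4 without Chd8 +/+ replicate 2, Chd8 neo/neo replicate 1 or Chd8 neo/neo replicate 2, 7 without Chd8 +/+ replicate 3 and 23 without Chd8 neo/neo replicate 3. The 11 of Chd8 neo/- became 20 with only the 2 groups compared, 7 with length and GC trends removed, 4 without Chd8 neo/- replicate 1 or 2, 5 without Chd8 +/+ replicate 1, 6 without Chd8 +/+ replicate 2 and 7 without Chd8 neo/- replicate 3. The median of the list stayed below 0 in all alternatives of these comparisons, from -0.40 to -0.26 in Chd8 neo/neo, from -0.31 to -0.21 in Chd8 neo/- and from -0.26 to -0.14 in cKO. Both E12.5 comparisons share their controls.

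The targets that fell included genes of the presynaptic terminal and of neuronal scaffolds. The scaffold gene Mapk8ip2 fell by 0.29 in Chd8 neo/neo, by 0.40 in Chd8 neo/- and by 0.57 in cKO on the log2 scale (adjusted p = 0.00138, 3.16e-05 and 0.000833). Syn1, the synaptic vesicle protein synapsin, stood at 33.2 to 36.5 CPM in Chd8 +/+ and 22.9 to 26.3 CPM in Chd8 neo/neo (-0.48 ± 0.075). Bsn, the active zone protein bassoon, fell in Chd8 neo/- (-0.62 ± 0.084, adjusted p = 0.000684), and Celsr3, an adhesion receptor of axon guidance, in Chd8 neo/neo (-0.35 ± 0.059) and Chd8 neo/- (-0.45 ± 0.059). Of the 12 targets that fell in Chd8 neo/neo and the 9 that fell in cKO, 7 were the same (58.3% of the former and 77.8% of the latter): Ap3b2, Bsn, Celsr3, Chga, Mapk8ip2, Snap25 and Syn1. Between the 11 of Chd8 neo/- and the 9 of cKO, 5 were the same (45.5% and 55.6%), all of them among those 7. Over all genes tested, 4.45% were called lower in Chd8 neo/neo, 5.99% in Chd8 neo/- and 5.70% in cKO. How many of those genes were shared between the ages was not counted. The overlap is thus not shown to be particular to the targets. The Chd8 neo/neo list of 12 fell to 4 without Chd8 +/+ replicate 2, Chd8 neo/neo replicate 1 or Chd8 neo/neo replicate 2. Gria2, whose promoter holds the RE1 core shown at the start, was counted at 1.71 to 2.27 CPM in Ctrl and 0.877 to 1.37 CPM in cKO (-0.87 ± 0.20, adjusted p = 0.0189), and at 169 to 204 CPM in Chd8 +/+ and 96.7 to 153 CPM in Chd8 neo/neo (-0.60 ± 0.17, adjusted p = 0.0686).

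Vgf, a secreted neuropeptide precursor, went the other way. It was counted at 0.665 to 0.897 CPM in Chd8 +/+, 1.205 to 1.79 CPM in Chd8 neo/neo and 1.36 to 1.72 CPM in Chd8 neo/-, and rose in both (0.89 ± 0.23, adjusted p = 0.0306, and 1.06 ± 0.23, adjusted p = 0.00930). The call in Chd8 neo/neo was lost without any single Chd8 +/+ or Chd8 neo/neo library, with the second run alone, with the replicate block and with only the 2 groups compared, each of which left 0 targets called higher, and the call in Chd8 neo/- was lost with DESeq2. At E10.5 it was counted at 0.134 to 0.179 CPM in Ctrl, at most 10 reads a library, and 0.708 to 1.203 CPM in cKO (2.67 ± 0.30, adjusted p = 0.000530). The sodium channel subunit gene Scn3b rose in cKO as well (1.495 ± 0.23). The neuronal markers, whose sum was below that of all Chd8 +/+ libraries in Chd8 neo/neo, summed to 3272 to 3651 CPM in Chd8 neo/-, which overlapped Chd8 +/+. Dcx (-0.34) and Map2 (-0.21) fell there too, and of these markers Stmn2 and Tubb3 are themselves on the target list. The part of these markers in the falls of the targets was not tested. At E10.5 the summed neuronal markers were 192 to 357 CPM in Ctrl and 226 to 318 CPM in cKO and overlapped, and 0 of the 6 tested were called (edgeR, 0 at an unadjusted p under 0.05).

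**Figure D4:**
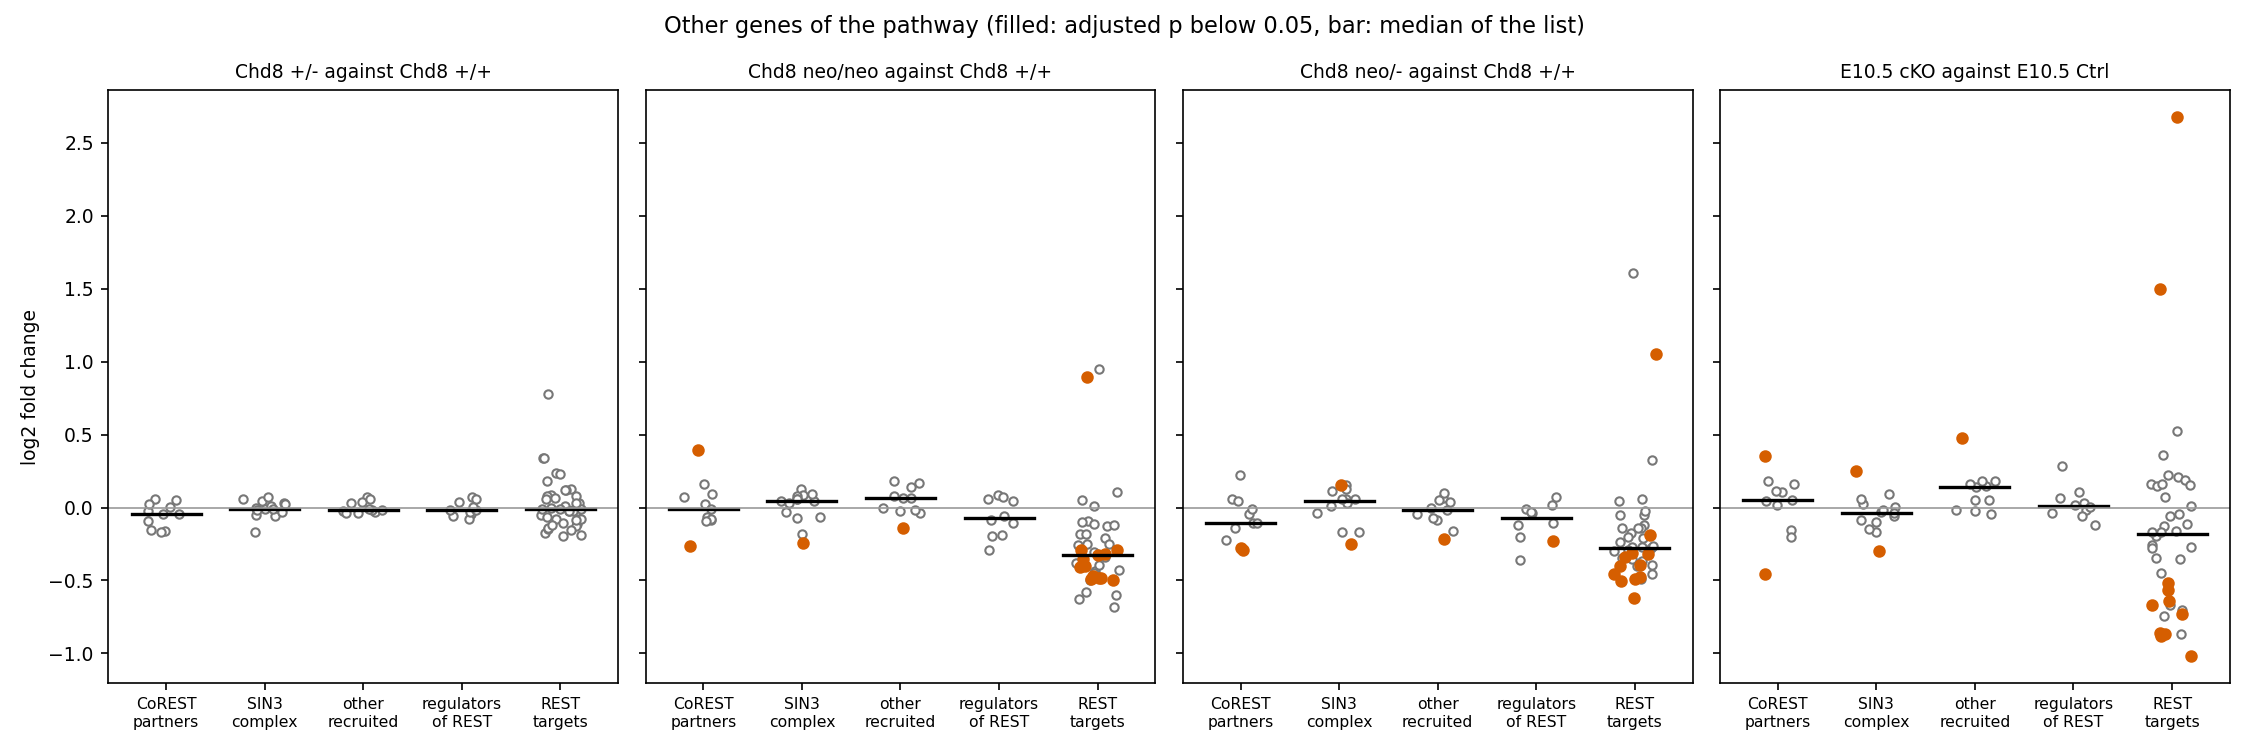
Log2 fold change of every tested gene of 5 pathway lists in 4 comparisons. Filled points passed an adjusted p of 0.05 and the bar is the median of the list. The REST targets lie mostly below 0 in Chd8 neo/neo (median -0.33) and Chd8 neo/- (-0.28), and less so in cKO (-0.18), where Vgf is the highest point.

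Over the 12 libraries of E12.5, the genes with the level most like that of Rest, among 10248 genes with a mean of at least 10 CPM, were Eaf1 (Pearson r = 0.969), Fgfr1op2 (0.930) and Nek9 (0.928). Within the machinery, r with Rest was 0.784 for Rcor1, 0.642 for Rcor2, 0.641 for Ctdsp1 and 0.476 for Ehmt2, at most 0.318 for Rcor3, Sin3a, Kdm1a and Hdac1, and -0.704 for Hdac2. Rcor2 and Ctdsp1 had an r of 0.773 with each other. These libraries share genotype groups and scaling, so that the values describe these 12 libraries and carry no test.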

How the data were processed

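RNA of 18 libraries was analysed, 12 of E12.5 and 6 of E10.5 cortex, 3 per group, grouped by the GEO labels. Per the labels and the methods, the authors checked reads with FastQC 0.11.2, trimmed them with Trim Galore 0.4.1, aligned them to GRCm38.p4 (mm10) with TopHat2 2.1.0 and counted them per gene with featureCounts 1.5.0. The deposited values are raw read counts per gene and sequencing run, 2 runs per library, for 46603 genes in 1 table per age. The runs of a library were summed here. Reads were counted without regard to strand, so reads in exons shared with an antisense gene cannot be assigned to 1 gene. Reads that map to several places are left out by the default of that counter. Duplicate libraries were looked for and none was found. Depth was 38774591 to 61051667 counts at E12.5 and 49632937 to 68488879 at E10.5, and no column of a sample was left unused.

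Genes with low counts were removed with filterByExpr, library sizes were scaled by TMM, and quasi-likelihood tests were run in edgeR 4.0.16 (R 4.3.3), with the 4 genotypes of E12.5 in 1 fit and E10.5 apart. This left 18810 and 18435 genes, and p-values were adjusted by Benjamini-Hochberg over all of them, with calls at 0.05. Intervals are 95% from the fitted log2 fold change and its SE, and adjusted p-values are from edgeR unless DESeq2 is named. P-values measure the spread between libraries of single embryos or pools. Alternatives were DESeq2 1.42.0, RLE and upper quartile scaling, no filter, each run alone and the replicate number as a block. Further alternatives were a sex term from Y-linked counts, removal of trends with exon length and GC content, only the 2 groups compared, and leaving out each library. Same-numbered libraries were positively correlated in every pair only in Chd8 neo/neo against Chd8 +/-, and weakly (0.108, 0.195 and 0.199). No label states a shared litter, and the crosses given in the paper for Chd8 neo/neo carry no null allele. The replicate numbers are thus not known to pair the samples in any comparison.

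The text names the 10 genes in every comparison, the called genes with the smallest adjusted p of each list (at most 3 per comparison), and the 3 genes most correlated with Rest. A result of the list of other recruited factors is not reported here. Other list genes (the overlap of targets between ages, Gria2, the marker genes) were named after their values were seen. The genes and lists were chosen with earlier results of these data known, and support nothing independently. Promoter sequences are from RefSeq, and figures were drawn with matplotlib 3.10.9 in Python 3.11.15.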

Additional observations from a re-analysis of the deposited data

How the results depend on the processing

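Of 1470 refits of the log2 fold changes of the 10 genes, 73 changed sign, none of them in a comparison in which the gene was called, 33 lost a call and 2 gained one, and the 60 group mean levels moved by less than the spread between replicates under RLE scaling. Each called gene kept its direction, in the comparisons in which it was called, in every alternative run. The cause of the changes was not tested unless the alternative itself removed libraries.

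In Chd8 neo/neo against Chd8 +/+ the count of the 10 genes called fell from 2 to 1 under RLE scaling, upper quartile scaling, no filter, the first run alone and the sex term, and to 0 with only the 2 groups compared, and ranged from 0 to 2 with each library left out. It was 1 in place of 0 in Chd8 neo/- against Chd8 +/+ with the second run alone. Against Chd8 +/-, Chd8 neo/neo had 0 in place of 1 with length and GC trends removed and 0 to 1 with a library left out. For any difference among genotypes it was 2 with DESeq2, 0 with length and GC trends removed and 0 to 2 with a library left out, in place of 1. In cKO it was 0 in place of 1 with the first run alone and with length and GC trends removed, and 0 to 1 with a library left out.

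With the replicate number as a block, 1 gene in place of 2 was called in Chd8 neo/neo against Chd8 +/+. In Chd8 neo/neo against Chd8 +/-, where same-numbered libraries were weakly correlated, Rcor2 stayed the 1 gene called. Its log2 fold change there was 0.31 (adjusted p = 0.0369), and the block changed no other call of the 10 genes. There the count of REST targets called lower went from 7 to 2 with the block.

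Over all genes, edgeR called 1534 in Chd8 neo/neo against Chd8 +/+, 430 to 2605 over the alternatives (lowest with only the 2 groups compared, highest without Chd8 neo/neo replicate 3), 2158 in Chd8 neo/- (1015 to 2687), 994 in Chd8 neo/neo against Chd8 +/- (23 to 2100) and 2110 in cKO (538 to 2722, lowest without cKO replicate 2).

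Every change of sign was in a comparison in which the gene was not called, Rcor2, Ctdsp1 and Ehmt2 among them. For Chd8 +/- against Chd8 +/+ the log2 fold change changed sign for Rcor1 from 0.0068 to -0.0018 (upper quartile scaling) and -0.0034 (run 1 alone), and to a range of -0.070 to 0.061 with a library left out, for Rcor2 from -0.028 to a range of -0.092 to 0.032 with a library left out, for Kdm1a from 0.0052 to -0.0036 (upper quartile scaling), and to a range of -0.018 to 0.034 with a library left out. There it also changed sign for Sin3a from -0.031 to a range of -0.067 to 0.016 with a library left out, for Ctdsp1 from 0.018 to a range of -0.024 to 0.058 with a library left out. For Chd8 neo/neo against Chd8 +/+ the log2 fold change changed sign for Rcor1 from 0.056 to a range of -0.018 to 0.11 with a library left out, for Rcor3 from -0.032 to 0.0043 (run 1 alone) and 0.089 (length and GC trends removed), and to a range of -0.059 to 0.015 with a library left out, for Kdm1a from 0.014 to -0.0021 (run 2 alone), and to a range of -0.0074 to 0.045 with a library left out. There it also changed sign for Hdac2 from -0.041 to a range of -0.10 to 0.0073 with a library left out, for Sin3a from -0.0042 to 0.0060 (run 1 alone) and 0.038 (length and GC trends removed), and to a range of -0.051 to 0.045 with a library left out. For Chd8 neo/- against Chd8 +/+ the log2 fold change changed sign for Rest from 0.033 to a range of -0.013 to 0.077 with a library left out, for Rcor3 from -0.074 to 0.048 (length and GC trends removed), for Kdm1a from -0.0065 to 0.0068 (run 2 alone), 0.0020 (sex term) and 0.016 (length and GC trends removed), and to a range of -0.030 to 0.023 with a library left out. There it also changed sign for Hdac1 from 0.010 to -0.011 (length and GC trends removed), and to a range of -0.0088 to 0.027 with a library left out. For Chd8 neo/neo against Chd8 +/- the log2 fold change changed sign for Kdm1a from 0.0084 to -0.0022 (no filter), -0.015 (run 2 alone) and -0.0019 (sex term), and to a range of -0.022 to 0.020 with a library left out, for Sin3a from 0.027 to -0.0049 (sex term), and to a range of -0.020 to 0.073 with a library left out. For Chd8 neo/- against Chd8 +/- the log2 fold change changed sign for Rest from -0.034 to 0.031 (length and GC trends removed), and to a range of -0.075 to 0.0091 with a library left out, for Rcor3 from 0.040 to a range of -0.011 to 0.086 with a library left out, for Kdm1a from -0.012 to 0.0047 (length and GC trends removed), and to a range of -0.039 to 0.0031 with a library left out. There it also changed sign for Hdac2 from 0.014 to a range of -0.023 to 0.036 with a library left out, for Sin3a from -0.019 to 0.0043 (sex term) and 0.015 (length and GC trends removed), for Ehmt2 from -0.0080 to 0.00089 (upper quartile scaling), 0.0013 (run 2 alone) and 0.020 (length and GC trends removed), and to a range of -0.052 to 0.015 with a library left out. For Chd8 neo/- against Chd8 neo/neo the log2 fold change changed sign for Kdm1a from -0.020 to 0.0089 (run 2 alone), and to a range of -0.032 to 0.00072 with a library left out, for Sin3a from -0.046 to 0.0092 (sex term), for Ctdsp1 from -0.027 to a range of -0.072 to 0.0091 with a library left out. For cKO against Ctrl the log2 fold change changed sign for Rest from 0.037 to -0.0086 (run 2 alone), and to a range of -0.026 to 0.092 with a library left out, for Rcor1 from -0.0062 to 0.00075 (no filter) and 0.00017 (replicate block), and to a range of -0.10 to 0.070 with a library left out, for Rcor2 from -0.016 to a range of -0.043 to 0.012 with a library left out. There it also changed sign for Rcor3 from -0.056 to a range of -0.12 to 0.0053 with a library left out, for Hdac2 from 0.018 to a range of -0.028 to 0.068 with a library left out, for Sin3a from 0.023 to a range of -0.0074 to 0.062 with a library left out.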

Other observations

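Scn2a, a sodium channel gene on the list of REST targets, spanned a wide range among the libraries of each hypomorphic genotype. It was counted at 12.8 to 16.3 CPM in Chd8 +/+ and 14.1 to 15.3 CPM in Chd8 +/-, but at 6.99 to 70.02 CPM in Chd8 neo/neo and 10.03 to 64.5 CPM in Chd8 neo/-. Its log2 fold changes against Chd8 +/+ were 0.95 (adjusted p = 0.5997) and 1.61 (adjusted p = 0.342). At E10.5 it fell in cKO (-0.88 ± 0.15, adjusted p = 0.00536). The gene was picked after its values were seen.

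The blood markers, 4 globin genes, summed to 3994 to 6344 CPM in Chd8 neo/- and 2917 to 3562 CPM in Chd8 +/+, with Hba-x called higher (0.94 ± 0.25), while the 10 genes of the REST machinery showed 0 calls in that contrast (edgeR, 2 at an unadjusted p under 0.05, 0 with DESeq2).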
